A study of Mus musculus with 18 samples.

Results

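Back skin of 6 of 18 mice carried high levels of the keratins made in growing hair follicles, and the other 12 carried little. The 6 libraries, each from 1 mouse, came from wild type mice WT 1 and WT 4, nuclear transgenics N-IKKa 8, 9 and 11, and the cytoplasmic transgenic C-IKKa 14. They are called the high class here, and the other 12 the low class. Members were chosen by the mean of log2(normalized count + 1) over 6 keratins: Krt25, Krt27, Krt28, Krt71 and Krt73 of the inner root sheath and Krt35 of the hair shaft. The limit was a mean above 8, which C-IKKa 18 also passed at 9.03, although it is not among the 6 libraries named for the high class. It was kept in the low class, and the counts that it changed are given without it, or with it in the high class. The lowest of the 6 was C-IKKa 14 at 12.35, and the next below C-IKKa 18 was C-IKKa 16 at 6.65. These values define the classes, so they and all differences between the classes are given as a description with no test.

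All mice were FVB, an albino strain, aged 6 months, in 3 groups of 6. WT mice were wild type, and both other groups carried a transgene for exogenous IKKα (the kinase encoded by Chuk) in keratinocytes, in the nucleus of N-IKKa mice and in the cytoplasm of C-IKKa mice. The promoter that drives the transgenes, the number of founder lines, and the hair cycle stage and sex of the mice are not given in the sources used here. Each library held 11.1 to 15.7 M counted reads, 11.4 to 15.7 M in the high class and 11.1 to 14.7 M in the low class, and a normalized count is a gene's reads divided by 1 factor per library. Keratin and keratin-associated protein genes together made up 1.92% to 3.91% of all normalized counts in the high class and 1.27% to 1.86% in the low class. Chuk ran from 881 to 1267 (median 1040) in the high class and 804 to 1042 (median 898) in the low class, a difference of 0.16 (SE 0.07) on the log2 scale.

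The class was not spread evenly over the sexes. Sex was read from Ddx3y, on the Y chromosome, with values over 500 normalized counts taken as male. It was at most 44.4 in 10 libraries read as female and at least 1536 in 8 read as male. All 6 high libraries were female, and the low class held 4 females (WT 2 and 5, N-IKKa 10 and C-IKKa 18) and 8 males (Fisher's exact test, two-sided p = 0.0128). By genotype, 2 of 6 WT, 3 of 6 N-IKKa and 1 of 6 C-IKKa libraries were high (Fisher-Freeman-Halton exact test, p = 0.818). Differences among the 10 female libraries are therefore given beside many of the genes and lists, though not all.

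**Figure D1:**
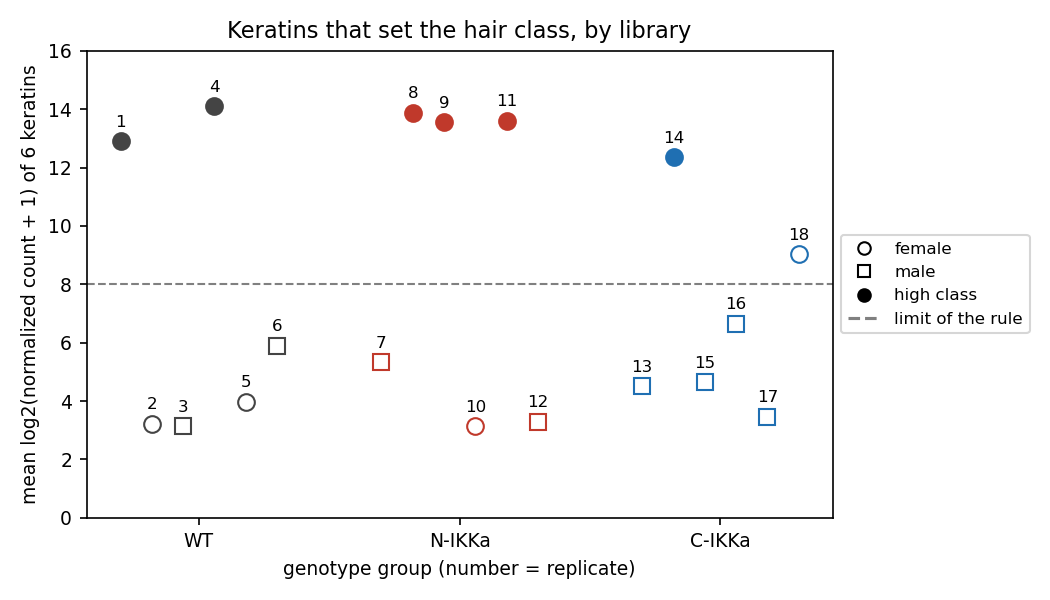
Mean log2(normalized count + 1) of the 6 keratins of the rule (vertical axis) in each of 18 libraries, by genotype group; the number is the replicate, circles are female and squares male, filled symbols are the high class, and the dashed line is the limit of 8. The 6 filled circles lie between 12.35 and 14.10, C-IKKa 18 lies at 9.03, and all squares lie below the limit.

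Hair follicles cycle between growth (anagen), regression (catagen) and rest (telogen). In growth, a bulb of dividing matrix cells around the dermal papilla gives rise to the inner root sheath, which moulds the hair, and to the hair shaft, whose cells fill with hair keratins, keratin-associated proteins and then die. Wnt, Sonic hedgehog, BMP, FGF and Notch signals between papilla, matrix and stem cells of the bulge drive the cycle, and melanocytes of the bulb pass pigment to the shaft. In rest the bulb is gone, and a club hair stands in a short follicle. In bulk tissue, more cells of a type and more RNA per cell cannot be told apart.

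The start sites of some genes that were high together are shown first, so that their sequences can be compared. RefSeq promoter windows (mouse build GRCm38.p6, an earlier build than that of the counts) were searched over the 250 bases before the start for TATAAA, the core of the TATA box, and for CTTTGA, the core bound by LEF and TCF factors, on both strands. The letters of the 2 motifs do not coincide. Shares are given over all listed members with a window, whether or not they passed the filter, and without the 6 keratins of the rule. TATAAA stood in 4 of 8 inner root sheath genes (50%), in 6 of 9 hair shaft keratins (66.7%) and in 41 of 51 keratin-associated proteins (80.4%). It stood in 1 of 14 hair matrix transcription factors (7.14%), in 9.36% of the 12478 matched genes tested and in 14.3% of all 27025 genes with a window. CTTTGA stood in 1 of the 8 inner root sheath genes (12.5%), in 5 of the 9 hair shaft keratins (55.6%), in 12 of the 51 keratin-associated proteins (23.5%), in 3 of the 14 transcription factors (21.4%), in 13.4% of matched genes tested and in 15.8% of all genes with a window. Members of a family share ancestry and are not independent, and these shares are a description with no test. Each stretch below holds the 150 bases before the start, 5′ to 3′ on the gene's strand, with motif matches in capitals. Krt71 and Krt25, both genes of the rule, stand for the inner root sheath, Krt33b and Krt31 for the shaft, and Krtap11-1 for the keratin-associated proteins. Lyg2 is an enzyme gene that was among the largest differences, and Msx2 is a matrix transcription factor shown as a stretch without either motif.
Krt71, chr15:101743098-101743247, minus strand: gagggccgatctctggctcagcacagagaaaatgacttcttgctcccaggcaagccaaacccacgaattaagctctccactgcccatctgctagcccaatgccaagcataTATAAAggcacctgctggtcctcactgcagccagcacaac
Krt25, chr11:99322952-99323101, minus strand: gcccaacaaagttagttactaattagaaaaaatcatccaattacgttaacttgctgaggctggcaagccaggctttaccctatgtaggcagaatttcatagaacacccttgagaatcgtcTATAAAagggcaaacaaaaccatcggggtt
Krt33b, chr11:100029869-100030018, minus strand: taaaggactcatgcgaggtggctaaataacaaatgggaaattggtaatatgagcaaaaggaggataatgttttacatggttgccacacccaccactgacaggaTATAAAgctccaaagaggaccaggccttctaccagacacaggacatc
Krt31, chr11:100050552-100050701, minus strand: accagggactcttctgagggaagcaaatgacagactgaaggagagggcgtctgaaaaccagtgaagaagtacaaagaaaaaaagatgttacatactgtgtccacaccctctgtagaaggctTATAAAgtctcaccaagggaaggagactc
Krtap11-1, chr16:89571184-89571333, minus strand: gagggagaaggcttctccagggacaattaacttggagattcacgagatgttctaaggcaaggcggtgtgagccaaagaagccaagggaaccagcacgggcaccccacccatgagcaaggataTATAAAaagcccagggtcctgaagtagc
Lyg2, chr1:37916494-37916643, minus strand: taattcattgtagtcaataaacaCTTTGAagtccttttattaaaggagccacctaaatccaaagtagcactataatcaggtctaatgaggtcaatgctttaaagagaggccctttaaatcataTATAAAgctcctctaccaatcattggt
Msx2, chr13:53472781-53472930, minus strand: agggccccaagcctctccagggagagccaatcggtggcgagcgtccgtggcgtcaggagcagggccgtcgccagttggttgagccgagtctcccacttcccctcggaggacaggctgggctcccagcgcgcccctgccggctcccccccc

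Of the 17667 genes tested, which reached 10 normalized counts in 6 or more libraries, 787 were counted higher in the high class (4.45%) and 399 lower (2.26%). A gene was counted when the difference, with genotype in the model, was at least 1 on the log2 scale (2-fold) and no high library overlapped a low one. Without a size limit, 1493 genes were separated upward and 928 downward. Among the 10 female libraries, 881 were higher (4.99%) and 653 lower (3.7%), and 752 of the 787 and 326 of the 399 were counted there too. The condition of no overlap is easier to meet with fewer libraries, here 6 against 4 and not 6 against 12. Larger counts in a subset are therefore not clearer differences. Without C-IKKa 18 the counts were 856 (4.85%) and 439 (2.48%), and with it in the high class they were 371 and 115. Leaving out C-IKKa 14 raised the lower count to 864, and leaving out WT 1 raised it to 624. The median difference of all genes tested was −0.01. Class took up a median of 31.2% of the variance that remained within genotypes, and over 50% in 5613 genes (31.8%). This fit held no term for sex, and all 6 high libraries but only 4 of the 12 low ones were female. Variance that goes with sex is therefore not separated from these shares.

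Leaving aside the 6 genes of the rule, the largest upward differences were in products of the hair itself. Krtap7-1, a keratin-associated protein of the hair shaft, ran from 3266 to 34765 (median 13780) in the high class and 0.88 to 129 (median 14.2) in the low class, higher by 10.09 (SE 0.93, and 11.12 among females) on the log2 scale. Krtap15 ran from 914 to 17240 (median 6411) in the high class and 0 to 74.6 (median 8.19) in the low class (9.71, SE 0.92, and 11.28 among females). Krtap8-1 and Krtap11-1, of the same gene superfamily, were higher by 9.57 (SE 0.81) and 9.43 (SE 0.66). The lowest high library for these genes was N-IKKa 9 and the highest WT 4. Lyg2, a goose-type lysozyme, ran from 1580 to 4804 (median 2392) in the high class and 0 to 44.7 (median 5.73) in the low class (9.20, SE 0.66). It was the 1 gene of the 12 named by size, with at most 4 keratin-associated proteins taken, that is neither a hair protein nor the hair follicle enzyme Padi3. Krtap15, Krtap8-1, Krtap11-1 and Lyg2 reached 10 in fewer than 6 low libraries and so passed the filter only because they were high. Log2 differences were computed with a pseudocount of 1, which understates them for genes near 0 in the low class.

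Outside the rule, 8 of the 9 inner root sheath genes that passed the filter were higher. The 5 rule keratins of this layer, separated by the choice of libraries, are given for description only: Krt71 ran from 27604 to 94553 (median 65788) in the high class and 11.4 to 2152 (median 52.7) in the low class, and Krt25 ran from 13196 to 38503 (median 31486) in the high class and 7.04 to 1108 (median 39.8) in the low class. Krt72, a keratin of the sheath cuticle, ran from 1272 to 11181 (median 4459) in the high class and 1.0 to 57.7 (median 8.96) in the low class (8.71, SE 0.67). Padi3, which converts arginines of trichohyalin to citrulline, ran from 2250 to 9039 (median 5859) in the high class and 0 to 152 (median 11.2) in the low class (8.87, SE 0.78). In the low class its highest value was that of C-IKKa 18. The member not counted was Gata3, a transcription factor of the inner root sheath that is also made in other skin cells, with 3613 to 7346 (median 5295) in the high class and 4212 to 5400 (median 5022) in the low class. Of the 9, 1 passed the filter through the high class. Tchh, the trichohyalin gene, is listed at 0 in all 18 libraries, as is Xist, also in the 10 libraries read as female. The reason was not tested, and the 0 values of these genes are not read as absence of RNA.

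Hair shaft keratins were higher in all 14 that passed besides the rule gene Krt35, 11 of which had a count of 10 in fewer than 6 low libraries and so passed only because they were high. Krt33b, an acidic keratin of the cortex, ran from 358 to 3158 (median 1269) in the high class and 0 to 8.31 (median 1.19) in the low class (8.95, SE 0.62). Its basic partners Krt81 and Krt86 ran 311 to 4799 (median 2091) and 264 to 4171 (median 1921) in the high class, and 0 to 15.6 (median 2.71) and 0 to 22 (median 1.54) in the low class. Krt34 was higher by 8.72 (SE 0.81) and Krt33a by 8.67 (SE 0.64). No low library reached a high one in any of these genes. Of 58 keratin-associated proteins in the table, 42 passed the filter, 39 of them through the high class, and all 42 were higher, by 2.13 to 10.1. Several of these genes, and the pairs Krt33a with Krt33b and Krt81 with Krt86, are close copies, so how reads were divided between them is uncertain.

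Cross-linking enzymes and trichohyalin-like proteins, which harden the sheath and medulla, were higher in 7 of 11 members that passed, 3 of which (Tgm6, Padi1 and S100a3) passed only through the high class. Tgm6, a transglutaminase, ran from 536 to 3328 (median 1594) in the high class and 0 to 38 (median 4.87) in the low class (8.33, SE 0.80). Tchhl1, a trichohyalin-like protein, ran from 1641 to 17059 (median 6731) in the high class and 4.4 to 190.1 (median 23.9) in the low class (8.07, SE 0.64, and 9.07 among females), and Padi1, another arginine deiminase, was higher by 7.98 (SE 0.67). Among 15 desmosome genes, 2 were higher: Dsg4, the desmoglein of the hair shaft, ran from 617 to 2442 (median 1455) in the high class and 4.67 to 58 (median 10.7) in the low class, and Dsc2 ran from 371 to 3070 (median 1408) in the high class and 179 to 330 (median 235) in the low class. The desmosome genes had a median difference of 0.08, and over all genes tested 4.45% were higher.

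Transcription factors of the hair matrix and precortex were higher in 11 of 20 members, with a median difference of 1.26. Dlx4 and Dlx2, homeobox factors, were higher by 5.09 (SE 0.55) and 4.27 (SE 0.34). Dlx4 passed the filter only through the high class, so the filter itself favoured a difference. Msx2, which acts in shaft differentiation, ran from 1019 to 2492 (median 2210) in the high class and 74 to 203 (median 99.8) in the low class (4.02, SE 0.21). Hoxc13, a direct regulator of hair keratin genes, ran from 1762 to 4057 (median 3603) in the high class and 144 to 377 (median 207) in the low class (3.63, SE 0.20). Lef1, the factor through which Wnt signals act in the matrix, ran from 906 to 2524 (median 1935) in the high class and 57.3 to 405 (median 142) in the low class (3.61, SE 0.27). Foxn1, the nude locus factor, ran from 791 to 2183 (median 1438) in the high class and 206 to 347 (median 308) in the low class (2.18, SE 0.18). In each of these genes WT 1 and C-IKKa 14 were the lowest of the 6 high libraries, and no low library overlapped them. The vitamin D receptor gene Vdr, needed for the hair cycle, was higher by 1.17 (SE 0.12).

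**Figure D2:**
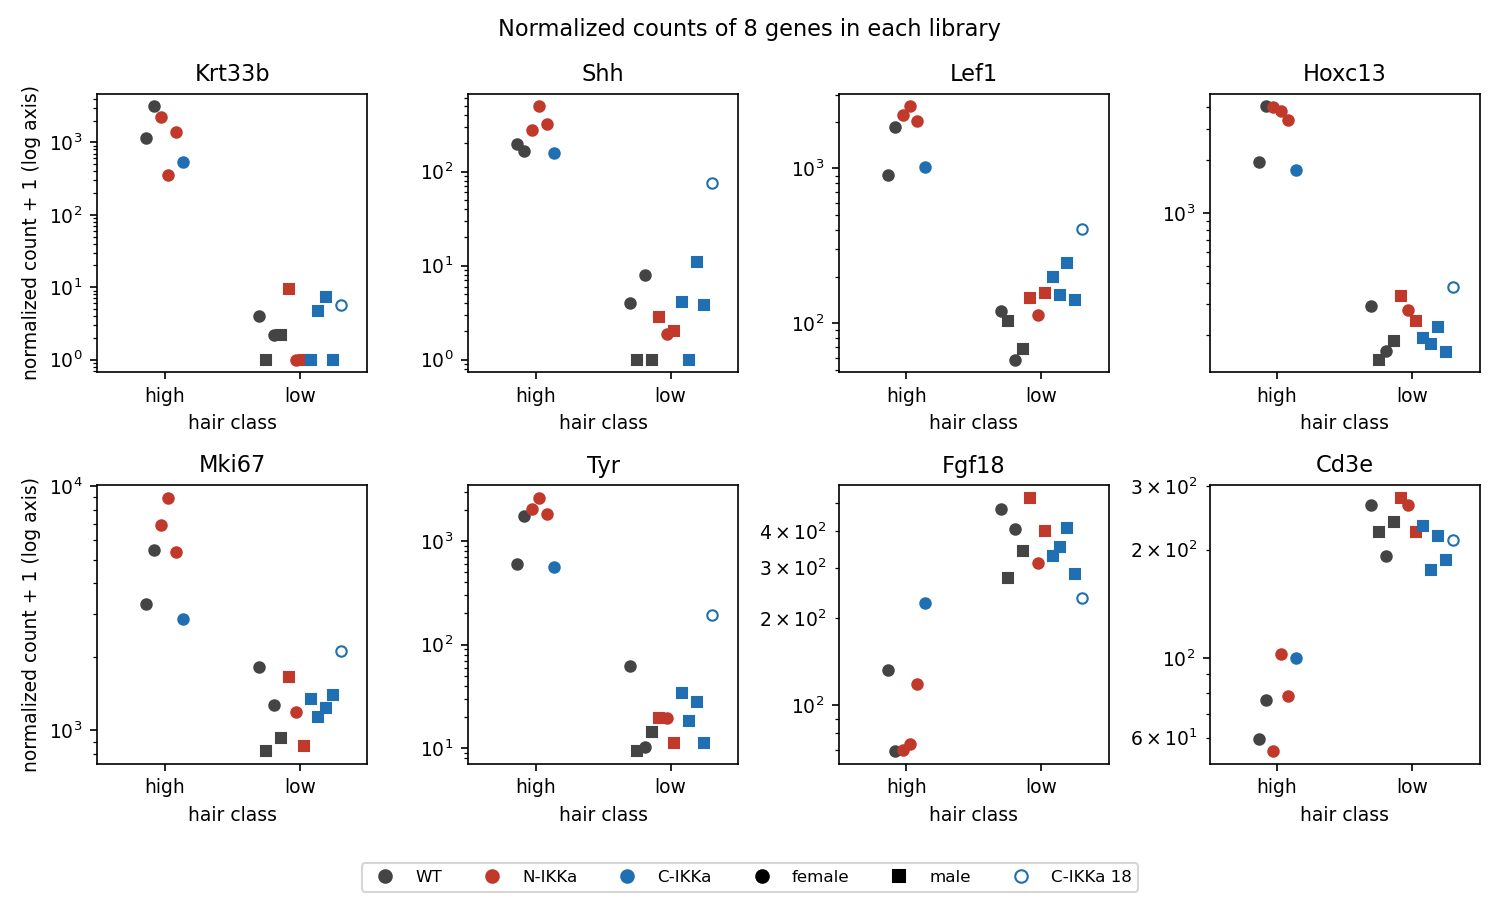
Normalized count + 1 (log axis) of 8 genes in each library by hair class; colours are genotype groups, circles female and squares male, and the open circle is C-IKKa 18. Krt33b, Shh, Lef1, Hoxc13, Mki67 and Tyr were higher in all 6 high libraries than in any low one, and Fgf18 and Cd3e were lower.

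Signalling genes differed in single members more than in whole pathways. Over all genes tested, 4.45% were counted higher and 2.26% lower, and a single counted member in a list is often near these shares. Shh, the ligand made by matrix cells on one side of the bulb, ran from 158 to 496 (median 237) in the high class and 0 to 74.1 (median 2.31) in the low class (6.31, SE 0.72, and 4.98 among females). The highest low value was that of C-IKKa 18, and the other 11 low libraries held at most 9.85. Shh passed the filter only through the high class, so the filter itself favoured a difference. Of 14 Hedgehog pathway genes 4 were higher, with a median of 1.09, and 7 were higher without C-IKKa 18. Hhip, a membrane inhibitor of the pathway, ran from 218 to 1132 (median 359.9) in the high class and 52.3 to 196 (median 85.3) in the low class, and the transcription factors Gli3 and Gli2 were higher by 1.33 (SE 0.18) and 1.27 (SE 0.16). Gli1 and Ptch1, targets of the pathway, were not counted because of C-IKKa 18. Gli1 ran 458 to 774 (median 608) in the high class, 219 at most in the other low libraries and 660.5 in C-IKKa 18, and Ptch1 ran 1911 to 3805 (median 2670), 941 at most and 2086. Both were chosen after their values were seen.

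Wnt ligands were higher in 2 of 16 members, receptors in 2 of 18, antagonists in 0 of 14 and target genes in 3 of 13. Wnt11 ran from 425 to 1115 (median 977) in the high class and 74.8 to 166 (median 97.2) in the low class (2.83, SE 0.22) and Wnt5a, a ligand of the non-canonical branch, was higher by 1.74 (SE 0.18). Of the receptors Fzd5 was higher by 2.21 (SE 0.17) and Ror2, a receptor for Wnt5a, by 1.82 (SE 0.19). Of the targets Bambi, a decoy receptor that damps BMP signals, ran from 448 to 1281 (median 1049) in the high class and 37 to 78.9 (median 65.4) in the low class (3.85, SE 0.22) and Nkd2 was higher by 1.23 (SE 0.15). Among females Nkd1 of the targets was higher and the antagonist Dkk2 lower, and without C-IKKa 18 the antagonist Kremen2 was higher. The antagonists Wif1 and Notum overlapped between classes, with Wif1 at 406 to 886 (median 519) in the high class and 96.5 to 764 (median 196) in the low class. Axin2, often read as a general Wnt target, was at 763 to 1266 (median 1039) in the high class and 959.5 to 1467 (median 1364) in the low class, which overlap; it too was chosen after its values were seen.

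BMP genes were higher in 4 of 26 members and lower in 1, with Chrdl1 lower as well among females and Fst without C-IKKa 18. Bmp8a ran from 180.4 to 518 (median 385) in the high class and 0 to 67.8 (median 6.29) in the low class (5.38, SE 0.77, or 3.26 among females). Bmp8a passed the filter only through the high class, so the filter itself favoured a difference. Smad6, an inhibitor inside the cell, was higher by 2.10 (SE 0.17). The BMP antagonist Grem1 ran from 221 to 905 (median 631) in the high class and 992 to 2309 (median 1802) in the low class, a difference of −1.68 (SE 0.26). Of 13 FGF genes 2 were higher and 1 lower. Fgf5, which ends the growth phase, ran from 74.2 to 842 (median 333) in the high class and 5.15 to 36.7 (median 15.9) in the low class (4.06, SE 0.41), and Fgf22 was higher by 2.25 (SE 0.18). Fgf18, made in the bulge of resting follicles, ran from 68.5 to 225 (median 95.4) in the high class and 235 to 522 (median 347) in the low class (−1.73, SE 0.24). The high library nearest to the low class in Fgf18 was C-IKKa 14, and the low library nearest to the high class was C-IKKa 18. In the Notch pathway 1 of 16 was higher, near the share of 4.45% over all genes tested. It was the target gene Heyl, at 599 to 1193 (median 1003) in the high class and 57.3 to 174 (median 80.2) in the low class (3.41, SE 0.20). Of 6 ectodysplasin pathway genes 0 were counted, and the receptor gene Edar was at 81.7 to 295 (median 163) in the high class and 49.3 to 152 (median 66.3) in the low class.

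Genes of dividing cells were higher. Of 32 cell cycle genes 23 were higher and all 32 had a positive difference, with a median of 1.57. Among females 22 were higher, and without C-IKKa 18 24 were. Mki67, a marker of cycling cells, ran from 2866 to 8959 (median 5417) in the high class and 822 to 2115 (median 1253) in the low class (1.95, SE 0.23). Bub1 of the spindle checkpoint was higher by 2.30 (SE 0.20), the spindle motor Kif11 by 2.29 (SE 0.26) and the mitotic kinase Cdk1 by 2.14 (SE 0.27). For Mki67, N-IKKa 9 was the highest library and C-IKKa 14 the lowest of the 6. Of 9 polyamine synthesis genes 1 was higher, Smox, a spermine oxidase (1.61, SE 0.15), against 4.45% of all genes tested. Odc1, the rate-limiting enzyme of that pathway and a gene of growing follicles, ran from 75.1 to 227 (median 131) in the high class and 33.2 to 83.2 (median 52.6) in the low class and overlapped.

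Melanocyte genes were higher in 11 of 15 members that passed, with a median of 3.68, in mice that are albino. Of the 11, Oca2, Mc1r, Slc45a2 and Gpr143 passed the filter only through the high class, so the filter itself favoured a difference in them. Among females Mlana was higher too. Tyr, the enzyme that starts melanin synthesis, ran from 555 to 2624 (median 1782) in the high class and 8.34 to 193 (median 17.9) in the low class (5.96, SE 0.56, and 4.97 among females). Oca2 and Slc45a2, transporters of the melanosome, were higher by 6.76 (SE 0.68) and 6.55 (SE 0.60). Mc1r, the receptor for melanocyte-stimulating hormone, ran from 101 to 802 (median 357) in the high class and 0 to 21.9 (median 1.72) in the low class (6.76, SE 0.62). The factors Mitf and Sox10, which mark the lineage more than pigment production, were not counted. Mitf ran from 2001 to 4074 (median 2842) in the high class and 1430 to 2164 (median 1760) in the low class. Sox10 ran from 127 to 222 (median 168) in the high class and 79.5 to 191 (median 112) in the low class. Both were chosen after their values were seen. Sox10 is also in the list of Schwann cell and nerve genes, so its value in bulk skin does not stand for melanocytes alone.

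Dermal papilla and sheath genes were higher in 3 of 19 members, with a median of 0.72. Over all genes tested 4.45% were higher, so little can be read from a single counted gene of a short list. Without C-IKKa 18, Acan and Trps1 were higher as well, and among females Rspo2 was. Corin, a protease of the papilla, ran from 130 to 337 (median 299.6) in the high class and 11.1 to 81.7 (median 23.2) in the low class (3.14, SE 0.33). Vcan, a proteoglycan of the papilla, ran from 1834 to 7131 (median 2995) in the high class and 669 to 1658 (median 892) in the low class (1.61, SE 0.25). Krt75, a keratin of the companion layer, was the 1 of 8 outer root sheath and companion layer genes that was higher, at 3203 to 11434 (median 8072) in the high class and 614 to 1906 (median 1262) in the low class (2.30, SE 0.16).

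Stem cell genes of the bulge did not move together. Of 17 members 1 was higher and 3 were lower, with a median of −0.47, and among females 0 were higher and 1 was lower. Over all genes tested 4.45% were higher and 2.26% lower, so 1 higher gene of 17 is near that share. Tbx1 was higher by 1.18 (SE 0.18), and gave 0.91 among females, under the 2-fold limit. Krt15 and Col17a1, a keratin and a hemidesmosome collagen of bulge cells, were lower at 5845 to 10465 (median 7914) in the high class and 12216 to 20064 (median 16357) in the low class and from 3537 to 6418 (median 4941) in the high class and 8156 to 12978 (median 10179) in the low class. Among females they gave −0.98 and −0.93, also under the limit. Both are made by basal epidermis too, where Krt14, the main acidic keratin of that layer, ran from 7771 to 17163 (median 11474) in the high class and 9988 to 15173 (median 11054) in the low class and overlapped. Cd34 was lower in every high library, at 214 to 401 (median 279) in the high class and 464 to 848 (median 539.5) in the low class, but fell just short of 2-fold (−0.98, SE 0.15). Lgr5 was higher in every high library, at 1706 to 2365 (median 2146) in the high class and 860.1 to 1520 (median 1147) in the low class, with 0.90 (SE 0.13). Bmp6 gave 0.12 (SE 0.14).

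Some epidermal genes were lower. Of 9 interfollicular keratins 4 were lower and 0 higher, with a median of −1.02; 2 were lower among females. Krt10, of the layers above the basal one, ran from 10544 to 33213 (median 20522) in the high class and 37113 to 62544 (median 43726) in the low class (−1.10, SE 0.21), and Krt77 and Krt78 gave −1.03 (SE 0.17) and −1.13 (SE 0.18). Among females Krt77 gave −0.99 and was not counted. Of 26 cornified envelope genes 2 were lower and 1 higher, with a median of −0.68, and among females 5 were lower and 2 higher. Flg2 ran from 8872 to 15457 (median 12854) in the high class and 21104 to 35056 (median 25761) in the low class and Krtdap ran from 359.6 to 1010 (median 575) in the high class and 1157 to 1726 (median 1432) in the low class. Cnfn was higher by 1.28 (SE 0.21). Of 21 sebaceous gland genes 1 was higher, the desaturase Fads2 (2.79, SE 0.25), and the list median was −0.72. Over all genes tested 4.45% were higher, and 1 of 26 and 1 of 21 are near that share.

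Immune cell genes were lower or did not separate. Of 14 T cell genes all had a negative difference, with a median of −1.23, and 4 were lower, 7 among females. The median among females was −1.24. Cd3e and Cd3g, chains of the T cell receptor complex, ran from 54 to 101 (median 76.3) in the high class and 174 to 278 (median 223) in the low class (−1.59, SE 0.14) and from 37.3 to 76.7 (median 50) in the high class and 141 to 207 (median 165) in the low class (−1.63, SE 0.16). Trbc1 and Cd28 gave −1.43 (SE 0.20) and −1.43 (SE 0.24). Of 13 Langerhans and dendritic cell genes all were negative (median −1.20, and −1.23 among females), 2 were lower and 6 among females. H2-Aa, a class II antigen-presenting chain, ran from 709 to 1650 (median 865) in the high class and 2026 to 4274 (median 2756) in the low class (−1.51, SE 0.16), and H2-Eb1 gave −1.53 (SE 0.17). Of 14 macrophage and monocyte genes 0 were counted, and Adgre1 was at 114 to 380 (median 126) in the high class and 337 to 542 (median 469.9) in the low class, where the overlap was through WT 1. Among females it was lower, as was Ccr2. Of 7 mast cell genes 0 were counted; 3 were lower among females, and the mast cell mean of low males (6.88 to 7.30) lay below that of low females (8.00 to 8.09). Of 19 interferon-stimulated and 20 IKK and NF-kB genes 0 were counted, with medians of −0.68 and −0.31, and −1.13 and −0.25 among females. Among females 2 of the interferon-stimulated genes, Gbp2 and Gbp3, were lower. The macrophage and mast cell medians were −0.64 and −0.37, and −0.97 and −1.04 among females. For comparison, 2.26% of all genes tested were lower, and 3.7% among females.

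**Figure D3:**
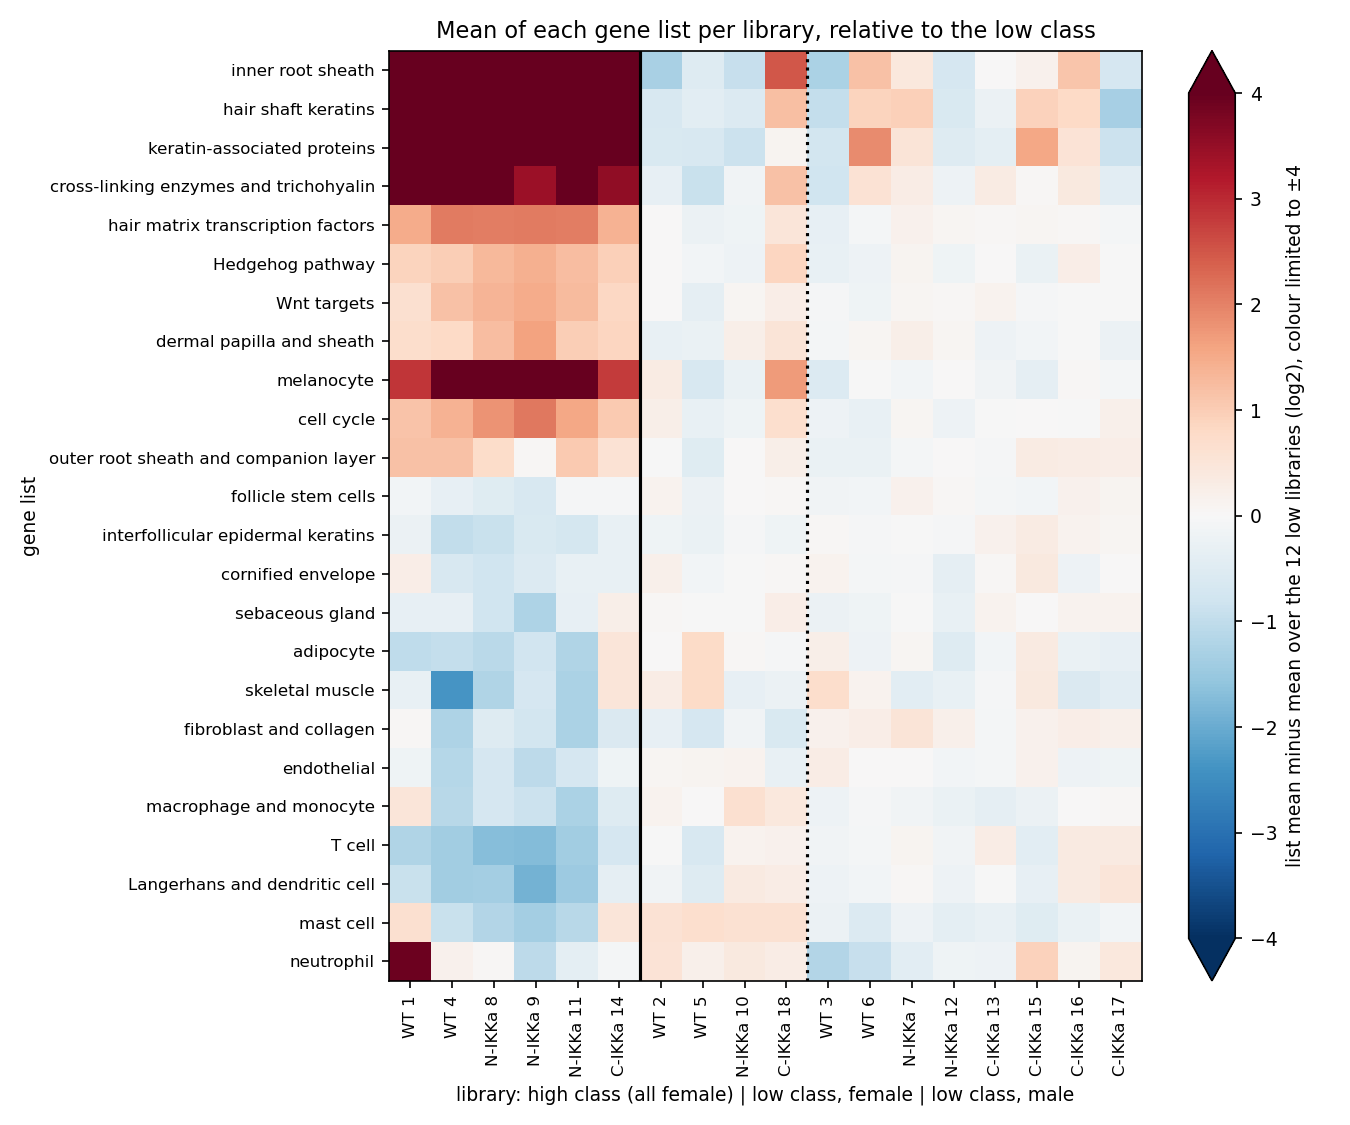
Mean log2 value of 24 gene lists (rows) in each of 18 libraries (columns), as the difference from the mean over the 12 low libraries; the colour scale is limited to ±4, the solid line separates the high class and the dotted line separates low females from low males. Follicle, melanocyte and cell cycle lists are red in the 6 high columns, T cell and dendritic cell lists are blue, and C-IKKa 18 is red for the inner root sheath and melanocyte lists. The inner root sheath row includes 5 keratins of the rule and the hair shaft row includes Krt35, which the choice of libraries used. Without these keratins the inner root sheath mean of C-IKKa 18 was 7.62, against 5.05 to 7.17 in the other low libraries.

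Lists of other skin layers had mostly negative differences but overlapped between classes. Of 17 endothelial genes 17 were negative (median −0.54) and 0 were counted, but Flt4 and Cldn5 were lower without C-IKKa 18. Of 19 adipocyte genes 18 were negative (median −0.72) and 0 were counted. Of 22 skeletal muscle genes 21 were negative (median −0.89) and 0 were counted. The leptin gene Lep ran from 209.7 to 685 (median 442) in the high class and 452 to 1764 (median 865) in the low class, and Myh4, a fast muscle myosin, ran from 933 to 42006 (median 9915) in the high class and 8301 to 64847 (median 21883) in the low class. A normalized count is a gene's reads divided by 1 factor per library, and rescaling by median of ratios gave the same class counts, 787 and 399. Keratin and keratin-associated protein genes made up 1.92% to 3.91% of all normalized counts in the high class. In the low class they made up 1.27% to 1.86%. The part of this share in the lower values was not tested.

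The largest downward differences among counted genes followed sex as well as class. C7, a complement component, had the largest of them, −4.65 (SE 0.92), since Y-linked genes overlapped between classes and were not counted. It ran 3969 to 7136 in low males, 179.6 to 252 in low females and 27.9 to 118 (median 55.2) in the high class, and the difference among females was −1.63. Plcxd3 ran 364 to 892, 32.6 to 69.5 and 12.1 to 31.8 (median 23) in the same order, with −1.04 among females. Col1a1, the main chain of dermal collagen, ran 60486 to 141190 in low males, 4461 to 11832 in low females and 4708 to 14708 (median 10413) in the high class. The females overlapped, and the difference for Col1a1 changed from −2.16 to 0.24 among females; this gene was chosen after its values were seen. Of 21 fibroblast and collagen genes 2 were lower, 3 among females, and the list median changed from −0.66 to −0.25 among females. The share over all genes tested was 2.26% lower. Dcn and Lum, proteoglycans of collagen fibrils, ran 18639 to 31661 and 6770 to 11554 in low males, 15194 to 19830 and 6816 to 8869 in low females, and 6600 to 11283 (median 7164) and 2470 to 4802 (median 3126) in the high class. In 17 of the 399 lower genes, and in 1 of the 787 higher genes, the term for sex was larger than that for class.

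Most other large downward differences were smaller among the females. Pon1, a lactonase, ran from 3.02 to 15.5 (median 8.9) in the high class and 28.9 to 108 (median 55) in the low class (−2.53, SE 0.24, and −2.75 among females), and Cyp2w1 ran from 19.1 to 45.4 (median 23.6) in the high class and 74.9 to 199.7 (median 129.5) in the low class (−2.17, SE 0.22, and −1.93). Pon1 was the 1 gene of the 12 named by size in this direction whose difference was larger without the males. Osr2, a transcription factor, gave −2.43 (SE 0.27) and −1.75 among females, and Tmem150c −2.30 (SE 0.29) and −1.73. Adcyap1r1, a neuropeptide receptor, gave −2.30 (SE 0.35) and −1.24. The pair Nat8f7 and Alms1-ps1 gave −3.10 (SE 0.45) and −3.13 (SE 0.46), and −1.75 and −1.70 among females. Glt8d2, Pla2g5 and Pcdh20 gave −2.20 (SE 0.41), −2.13 (SE 0.38) and −2.09 (SE 0.35), and −0.91, −1.16 and −1.08 among females. All of these kept the downward direction among females, but Glt8d2 fell under the 2-fold limit there. Of hormone and growth factor genes, the estrogen receptor Esr1 was lower at 505 to 1171 (median 682) in the high class and 1566 to 3272 (median 1819) in the low class (−1.43, SE 0.17). Igfbp3 and Igfbp5, which bind insulin-like growth factors, gave −1.47 (SE 0.19) and −1.29 (SE 0.23). Prlr, the prolactin receptor, ran from 112 to 231 (median 149.8) in the high class and 152 to 326 (median 274) in the low class. The circadian output factor Hlf gave −1.25 and Mbp of myelin −1.07, and among females −0.97 and −0.91, under the limit.

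**Figure D4:**
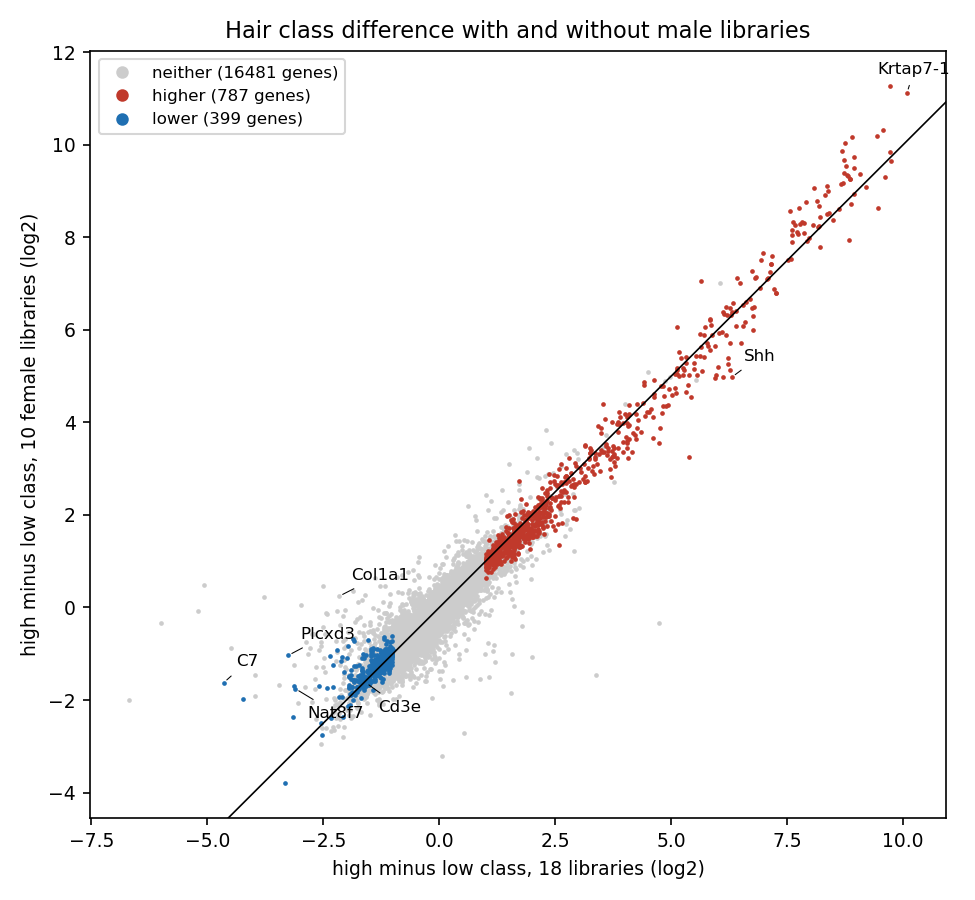
High minus low class difference on the log2 scale for 17667 genes, from 18 libraries (horizontal) and from the 10 female libraries (vertical); the line marks equal values, red points are the 787 higher genes and blue points the 399 lower ones. Krtap7-1 lies above the line (10.09 and 11.12) and Shh below it (6.31 and 4.98), and C7, Plcxd3 and Col1a1 lie far to its left.

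The 6 high libraries were not alike. The mean log2 value of the inner root sheath list, rule keratins included, ran from 11.3 in C-IKKa 14 to 13.3 in WT 4. The hair shaft keratin list was lowest in N-IKKa 9 at 8.49 and reached 11.2 in WT 4, and the keratin-associated protein list ran from 7.17 in N-IKKa 9 to 10.4 in WT 4. N-IKKa 9 had the highest values of Shh, Lef1, Mki67, Tyr and Vcan among the 6. WT 4 had the lowest skeletal muscle mean, 8.79 against 9.9 to 11.7 in the others. C-IKKa 14 had the highest adipocyte mean, 11.1 against 9.44 to 9.90, and WT 1 the highest neutrophil mean, 8.64 against 3.69 to 4.90. S100a8, a neutrophil alarmin, was at 336 in WT 1 and 3.57 to 38.3 (median 23.3) in the low class.

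C-IKKa 18 stood between the classes, and not equally for each layer. Its place on the rule keratins was known from the choice of libraries. Without them, its inner root sheath mean was 7.62, against 5.05 to 7.17 in the other low libraries and 10.6 to 12.6 in the high class. Its melanocyte mean was 7.24, against 8.35 to 9.89 in the high class. Its hair shaft keratin mean without Krt35, 3.29, was within the range of the other low libraries (1.02 to 3.32) and below the high class (8.24 to 11.1). Its keratin-associated protein mean of 1.63 was also within the range of the other low libraries (0.633 to 3.39), against 7.17 to 10.4 in the high class. Mki67 in C-IKKa 18 was 2115, the highest of the low class.

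Whether the class difference depended on genotype was tested with limma, on a class by genotype term that the choice of libraries did not use. The F test over both transgenic groups called 4 of 17667 genes (0.0226%) at an adjusted p below 0.05: Angpt1, Aqp4, Tlcd3b and Smco1. Angpt1, a ligand of the endothelial receptor Tie2, was at 129 and 131 in the 2 high WT libraries, 186 to 224 in the 3 high N-IKKa libraries and 344 in C-IKKa 14, and ran 289 to 496 (median 365) in the low class (limma adjusted p = 0.0214). Its class difference was −1.75 among WT mice, −0.73 for N-IKKa mice and −0.04 for C-IKKa mice. Aqp4, a water channel of fast muscle fibres and glia, had class differences of −3.41, −0.62 and 0.98 in WT, N-IKKa and C-IKKa (limma adjusted p = 0.0214). For Tlcd3b these were −2.12, −1.20 and 0.33, and for Smco1 −2.84, −0.76 and 0.62 (limma adjusted p = 0.0415 each). Asb15 and Plaat3, next in order, were not called (limma adjusted p = 0.0904 each).

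These 4 calls rested on few libraries. The C-IKKa value came from C-IKKa 14 alone, which the model assumes to vary like the other groups. Its adipocyte and muscle means were the highest of the high class, and the part of these tissues in the calls was not tested. The F test gave 2824 genes with an unadjusted p under 0.05. For N-IKKa against WT alone limma called 0 genes, with 1510 at an unadjusted p below 0.05 (edgeR 0, DESeq2 18), and for C-IKKa against WT 42 (0.238%). The F test called 1077 genes without WT 1, 569 genes without WT 4 and 15 genes when C-IKKa 15 was left out. It called 0 without WT 2 or 3, N-IKKa 12 or C-IKKa 17. Without C-IKKa 14 no C-IKKa library is high, so only the N-IKKa against WT term was left to test, and it called 0 genes. Without WT 5 or 6, N-IKKa 7, 10 or 11 or C-IKKa 18 it called 1 or 2. With C-IKKa 18 in the high class it called 642, DESeq2 called 660 and edgeR 1.

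**Figure D5:**
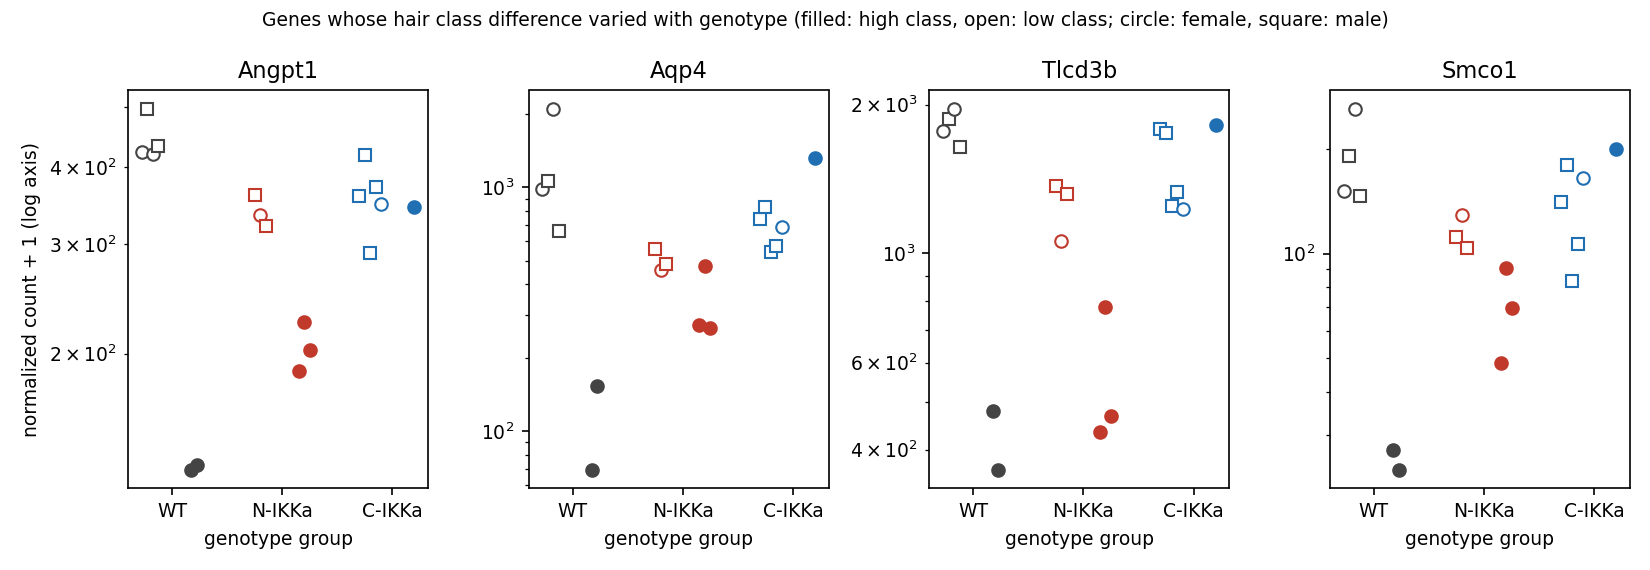
Normalized count + 1 (log axis) of Angpt1, Aqp4, Tlcd3b and Smco1 by genotype group; filled symbols are the high class, open symbols the low class, circles female and squares male. In WT the 2 filled circles lie below all open symbols, and the single filled C-IKKa circle lies within or above the open ones.

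Adding class to the model changed how many genes differed between genotypes. By limma, C-IKKa against WT had 138 genes higher (0.781%) and 7 lower (0.0396%) with class in the model, and 61 higher and 0 lower without it. All 61 were among the 145, and 84 were called only with class. N-IKKa against C-IKKa had 6 higher (0.034%) and 117 lower (0.662%) with class, against 1 and 75 without, and 75 were shared. N-IKKa against WT had 1 gene higher (0.00566%) and 0 lower either way, with 1043 genes at an unadjusted p below 0.05 with class. EdgeR called 1 higher and 0 lower there, and DESeq2 4 and 2. The median residual SD fell from 0.35 to 0.27 on the log2 scale when class was added. The count of 145 was 95 without C-IKKa 17 and 220 without C-IKKa 15. Sex was not balanced between the groups. In C-IKKa only 14 and 18 were read as female, and elsewhere only WT 3 and 6 and N-IKKa 7 and 12 as male. With a sex covariate C-IKKa against WT had 135 genes and N-IKKa against C-IKKa 132.

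The genes with the smallest p kept nearly the same size. Pglyrp2, an enzyme that cuts bacterial peptidoglycan, was higher in C-IKKa than in WT by 5.0 with class and 5.08 without (limma adjusted p = 8.61e-07 and 2.01e-06). Lingo2 rose by 4.52 with class and 4.24 without (limma adjusted p = 1.68e-05 and 0.00259). Spib rose by 4.53 (SE 0.44, limma adjusted p = 1.68e-05). Cdh9, a cadherin, was the gene called in N-IKKa against WT, higher by 3.23 with class and 3.05 without (limma adjusted p = 2.27e-05 and 0.0086). Arhgap8 was lower in N-IKKa than in C-IKKa, at −2.41 with class and −2.38 without (limma adjusted p = 2.67e-05 and 2.85e-05).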

How the data were processed

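Bulk RNA of back skin from 18 FVB mice was sequenced as paired-end reads on a NovaSeq instrument from a stranded mRNA library, per the labels' protocols. The deposited table holds 1 signal per gene and library, which the authors obtained by counting reads with featureCounts on GRCm39, per the submitters' processing notes; versions, the aligner, the strand setting and the scaling tool are not given in the sources used here. Each value was a whole multiple, within 0.001 reads, of 1 step per library (100% of non-zero values), so each deposited value was taken as a scaled read count, with 1 factor for each library, from which the reads were recovered. One read was worth 0.816 to 1.20 normalized counts, and a listed 0 allows up to 3 counts (2.45 to 3.61 normalized counts), for counting error only. No pair of libraries was a copy of another (chi-square per gene at least 5.61).

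Values were analysed as log2(normalized count + 1) for 17667 of 55357 genes (at least 10 in 6 libraries), with 1 mean per genotype and a term for class. Genes were counted in the class comparison at a 2-fold difference with no overlap between 6 and 12 libraries. Tests across genes (interaction and genotype contrasts) used limma 3.58.1 in R 4.3.3, two-sided, with Benjamini-Hochberg adjusted p below 0.05. Nothing in the labels says that mice were littermates or processed in batches, and p-values measure the spread between these mice. Members, gene lists and tests were chosen with earlier results of these data known, so no list is independent support. Genes were named by size (up to 12 per direction whose class with the higher level averaged 50 or more, leaving out numbered gene models and the 6 keratins of the rule, with at most 4 keratin-associated proteins), from each list (up to 4 counted members, or else 2) and by smallest p (up to 6), beside 18 single genes chosen for their roles. The alternatives changed the pseudocount (0.5 or 5), dropped the filter or raised it to 50, and rescaled the libraries by quantiles, median of ratios or TMM. Others fitted the recovered counts with DESeq2 1.42.0 or edgeR 4.0.16, or used array weights, a sex covariate, subsets of libraries, other class and size limits, and each library left out. Alternatives that leave out C-IKKa 18 from a subset, or move it, were added after the data were seen. The fits were also run on simulated data, but the outcome is not given here and is not used as support.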

Additional observations from a re-analysis of the deposited data

Results flagged for a closer look

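Means of gene lists were examined in the 6 high and the 4 low female libraries, and named genes in the 6 high libraries. A library stood apart in 13 of 218 such groups, and chance gives about 1 in 20. The value in each case is the gap to the nearest other library divided by the whole range. No cause was tested.

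Among the high libraries, C-IKKa 14 stood apart in the adipocyte mean (11.1 against 9.44 to 9.90, gap 0.727) and the circadian clock mean (9.73 against 9.10 to 9.32, gap 0.644). It also stood apart in Relb, a subunit of the NF-kB family (630 normalized counts against 261 to 336, gap 0.714), and in Plaat3, a phospholipase of fat cells (1054 against 323 to 424, gap 0.77). WT 1 stood apart in the neutrophil mean (8.64 against 3.69 to 4.90, gap 0.756) and in S100a8 (336 against 18.0 to 50.2, gap 0.655). WT 4 stood apart in the cholesterol synthesis mean (9.97 against 9.37 to 9.59, gap 0.631). N-IKKa 9 stood apart in the T cell gene Cd28 (10.4 against 26.3 to 43.3, gap 0.642).

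Among the low females, C-IKKa 18 stood apart in the hair shaft keratin mean (3.56 against 1.70 to 1.91, gap 0.887). That mean includes Krt35, a gene of the rule. Without Krt35 the mean of C-IKKa 18 was 3.29, within the range of the other low libraries, males included (1.02 to 3.32). WT 5 stood apart in the desmosome mean (11.1 against 11.3, gap 0.944), the adipocyte mean (11.4 against 10.6 to 10.7, gap 0.861) and the mean of mitochondrially encoded genes (14.0 against 13.0 to 13.2, gap 0.846). N-IKKa 10 stood apart in the cholesterol synthesis mean (9.19 against 9.39 to 9.41, gap 0.878).

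The class difference varied with genotype in Angpt1 and Aqp4 (limma adjusted p = 0.0214 each) and in Tlcd3b and Smco1 (limma adjusted p = 0.0415 each). In these genes the C-IKKa value is that of C-IKKa 14 alone.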

How the results depend on the processing

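No paired analysis was possible because the groups share no replicate numbers. The class counts of 787 higher and 399 lower stayed within 1.5 times under other pseudocounts, filters, scalings, tools and covariates. The lower count was 1062 in WT and N-IKKa alone, 653 among females, and 942 among females without C-IKKa 18. These subsets hold fewer libraries, so the condition of no overlap is easier to meet there. A 4-fold limit left 406 higher and 22 lower genes, no limit gave 1493 and 928, and C-IKKa 18 in the high class gave 371 and 115. With each library left out, the higher count ran from 767 to 1026 and the lower from 360 to 864.

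The 4 interaction genes became 112 with no filter, 1 with edgeR, 660 with DESeq2, 0 with array weights, 9 with a sex covariate and 642 with C-IKKa 18 in the high class, and 0 to 1077 with each library left out. For N-IKKa against WT, 0 became 20 with no filter and 18 with DESeq2, and 0 to 357 with each library left out. The causes were not tested. For genotype, the 145 genes of C-IKKa against WT became 291 with DESeq2, 272 with array weights and 61 without class. The 123 of N-IKKa against C-IKKa became 250, 197 and 76 in these settings, 227 with the keratin mean as a continuous term, and 203 with C-IKKa 18 in the high class. The 1 gene of N-IKKa against WT became 2 with no filter, 6 with DESeq2, 2 with array weights and 0 with a filter of 50. Leaving out a library gave 95 to 220, 82 to 199 and 1 to 2 in these 3 contrasts.

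Of 5087 class differences of single genes in other settings, 87 moved by more than the residual SD and 0 changed direction among counted genes. Of 1634 medians of lists or of all genes, 36 moved by more than their limit (the SD between libraries for a list). Both tallies include settings that could not move a difference. Size limits do not enter the fit, and classes set by hair shaft keratins held the same libraries. Median-of-ratios scaling gave the same class counts, 787 and 399. The exact tests stayed on the same side of 0.05. Sex by Xist was not run, since Xist is listed at 0 in all libraries. Genes under about 3 counts are limited by depth.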

Other observations

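Some gene groups outside the follicle showed small or no separation. Of 18 cholesterol synthesis genes 14 had a positive class difference and 0 were counted, with a median of 0.19. Of 11 mitochondrially encoded genes 9 were negative, with a median of −0.12. Of 14 circadian clock genes 12 were negative and 1, Hlf, was lower, with a median of −0.62, and 0 were counted among females. The hour of collection is not given in the sources used here. Of 9 Schwann cell and nerve genes 7 were negative and 1, Mbp of myelin, was lower, with a median of −0.65, and 0 were counted among females. Of 11 genes of the IGF system 2 were lower, Igfbp3 and Igfbp5, and 0 higher. Over all genes tested 2.26% were lower, so little can be read from 1 or 2 counted genes of such short lists.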
